A study of Bos taurus with 8 samples.

Results

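NRN1 (Ensembl gene ENSBTAG00000009873) encodes neuritin 1, a small protein held on the outer cell surface by a glycosylphosphatidylinositol (GPI) anchor. It is 1 of the 21861 genes listed in the single-cell RNA sequencing (scRNA-seq) tables of peripheral blood mononuclear cells (PBMCs) of Holstein cattle. It was chosen by its RNA level: among genes with at least 200 unique molecular identifiers (UMIs, each standing for 1 captured RNA molecule), it had the largest fall after 2 h of lipopolysaccharide (LPS) in cells with up to 3000 genes. Its RNA ratios to the library without LPS are therefore given as a description, with no test. Neuritin is best known from the nervous system, where neuronal activity switches the gene on and the protein promotes the growth and survival of neurites and synapses. In the immune system it is known from regulatory T cells and from T cells made unresponsive to antigen. LPS, a component of the outer membrane of Gram-negative bacteria, is sensed by monocytes through CD14, TLR4 and LY96, and its sensing turns on some genes and turns off others.

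Whole blood of 4 lactating female Holsteins, each 2 years old, was pooled and split into 4 parts. One part received no LPS, and the others received LPS at 2 µg/ml at 37 °C for 2 h, 4 h or 8 h. PBMCs were then isolated, and each part gave 1 scRNA-seq library and 1 library of the single-cell assay for transposase-accessible chromatin (scATAC-seq). With 1 library for each treatment, differences between treatments could not be checked in replicates, and effects of the library, the treatment and time in incubation cannot be told apart. All intervals below are exact 95% intervals that cover counting error only. The limits on cells (200 to 3000 genes, a minimum of 200 UMIs, mitochondrial UMIs under 20%) left 7821 cells without LPS, 9865 after 2 h of LPS, 7387 after 4 h and 3411 after 8 h. They held 38503367, 47875879, 40160248 and 16657841 UMIs in the same order. Doublets were not removed. Of the 30663 barcode sequences, 93 occurred in more than 1 library, and 11 NRN1-positive barcodes carried such a sequence. Markers of the expected cell types were present in every scRNA-seq library: CD14 for monocytes, CD3E for T cells, MS4A1 for B cells and NCR1 for natural killer (NK) cells.

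NRN1 RNA was abundant enough to count without LPS and scarce at every time with LPS. The library without LPS held 1836 NRN1 UMIs, against 164 at 2 h, 86 at 4 h and 43 at 8 h. Scaled to CPM (UMIs of the gene in 1000000 UMIs of the library), the level was 47.7 CPM without LPS (45.5 to 49.9), 3.43 CPM at 2 h (2.92 to 3.99), 2.14 CPM at 4 h (1.71 to 2.64) and 2.58 CPM at 8 h (1.87 to 3.48). The library without LPS stood far above the other 3, and their counting intervals did not reach it. Relative to no LPS, the level was 13.9 times lower at 2 h (11.9 to 16.4), 22.3 times lower at 4 h (17.9 to 28.0) and 18.5 times lower at 8 h (13.7 to 25.6). Most of the difference was present at 2 h. From 2 h to 4 h the level changed 0.625-fold (0.476 to 0.816), and from 4 h to 8 h it changed 1.21-fold, with an interval that includes no change (0.816 to 1.76).

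On the log2 scale with 1 CPM added to each level, the ratio of NRN1 to no LPS was -3.46, -3.95 and -3.76 after 2 h, 4 h and 8 h of LPS. The median over all genes with at least 200 UMIs was -0.02, 0.05 and 0.11. At 2 h NRN1 ranked first among the falls of 9255 genes in cells with up to 3000 genes, and it ranked 3rd of 9823 when that upper limit was lifted (4th at 4 h and 3rd at 8 h). Of the 9255 genes, 2.79% were at least 2-fold lower and 1.13% at least 2-fold higher. Next in order came MMP9, a gelatinase that cuts extracellular matrix, at -3.39, and ENSBTAG00000049346 at -3.03, so that NRN1 led by a narrow margin. At 4 h NRN1 ranked 8th of 9125 genes, of which 4.68% were at least 2-fold lower and 1.56% higher, and at 8 h it ranked 4th of 8652, of which 3.33% were that much lower and 0.497% higher. The rank is the quantity by which NRN1 was chosen.

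Both the number of NRN1-positive cells and the RNA in each of them were lower with LPS. Without LPS 453 of 7821 cells carried at least 1 NRN1 UMI, which is 5.79% of cells (5.28 to 6.33). At 2 h 108 cells did (1.09%, 0.899 to 1.32), at 4 h 53 cells (0.717%) and at 8 h 34 cells (0.997%). The positive cells held 4.05 ± 5.73 NRN1 UMIs without LPS (mean ± SD over 453 cells), against 1.52 ± 1.18 after 2 h, 1.62 ± 2.00 after 4 h and 1.26 ± 0.666 after 8 h. The SD runs over cells of 1 library and is no replicate error. Cells with many NRN1 UMIs were mostly seen without LPS. There, 116 cells held 5 or more NRN1 UMIs and the highest held 45, against 4 cells at 2 h (highest 7), 4 cells at 4 h (highest 12) and no cell at 8 h (highest 4). Cells with a single NRN1 UMI made up 46.8% of the positive cells without LPS and 75.0%, 84.9% and 82.4% after 2 h, 4 h and 8 h. Few cells carried the remainder at 4 h, where 5 cells held 40.7% of all NRN1 UMIs, compared with 9.69% in the 5 leading cells without LPS. Positive cells were deeper than negative ones in every library, with median totals of 11147 against 3912.5 UMIs without LPS and 14647.5 against 4058 at 2 h.

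Without LPS most NRN1 RNA lay in CD14-positive cells. CD14, the co-receptor that hands LPS to TLR4, was found in 1233 of the 7821 cells, and these held 95.6% of the NRN1 UMIs although they held 25.9% of all UMIs. They made up 82.8% of the NRN1-positive cells, and the others were 59 cells with a lymphoid marker and no CD14 and 19 with none of the 4 markers. Of the CD14-positive cells 375 were NRN1-positive (30.4%, 27.9 to 33.1). With LPS, 70 of 628 CD14-positive cells were NRN1-positive at 2 h (11.1%, 8.79 to 13.9), 20 of 294 at 4 h (6.80%, 4.20 to 10.3) and 10 of 440 at 8 h (2.27%, 1.1 to 4.14). The share without LPS lay above the intervals of the 3 LPS libraries. With no upper limit on genes it was 37.5%, 16.1%, 11.3% and 9.18% in the same order, and with at least 2 CD14 UMIs the 8 h share was 6.98%, so the 4 h and 8 h values rest on these limits while the order against no LPS does not. Within CD14-positive cells the NRN1 level was 176 CPM without LPS (168 to 184), 20.3 CPM at 2 h (16.9 to 24.2), 21.0 CPM at 4 h (15.8 to 27.5) and 8.26 CPM at 8 h (4.72 to 13.4). On the log2 scale with 1 CPM added, the ratio within these cells was -3.05, -3.00 and -4.25, ranking 5th of 4806, 14th of 4445 and 2nd of 4413 genes. Of the genes compared within CD14-positive cells, 7.07%, 5.53% and 4.44% were at least 2-fold lower in the same order. CD14-positive cells themselves gave a smaller part of each LPS library, with 12.9%, 6.28% and 11.6% of its UMIs. Over whole libraries, fewer CD14-positive cells and less NRN1 RNA per cell thus both moved with the fall. CD14 RNA was also lower within the CD14-positive cells, at 1932 CPM without LPS and 1125, 1317 and 956 CPM with LPS, so the gate did not select the same range of cells at each time.

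**Figure D1:**
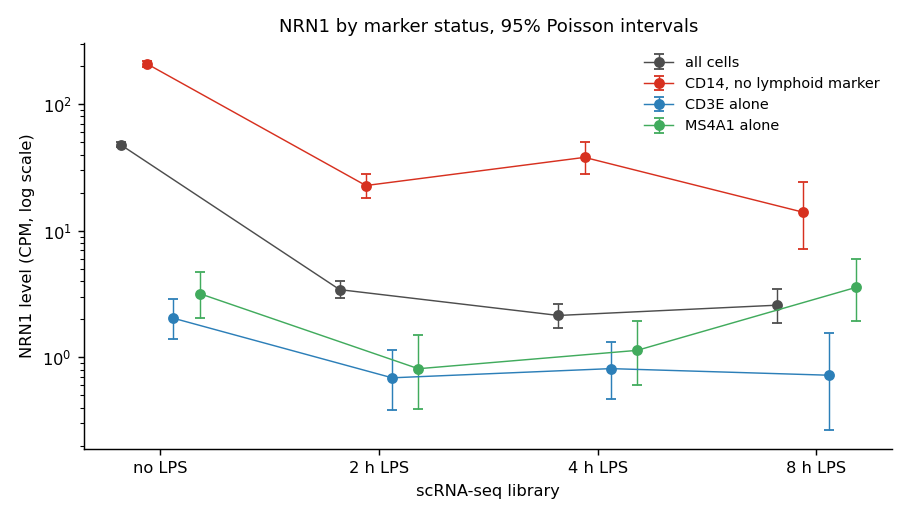
NRN1 level (CPM, log axis) in the 4 scRNA-seq libraries for all cells kept and for cells carrying 1 of the markers CD14, CD3E and MS4A1 alone among CD14, CD3E, MS4A1 and NCR1; points are library totals, bars are exact 95% Poisson intervals, and lines only join the points of a class. Cells with CD14 alone stood highest in every library, at 208 CPM without LPS and 22.8, 38.0 and 14.0 CPM with LPS.

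**Figure D2:**
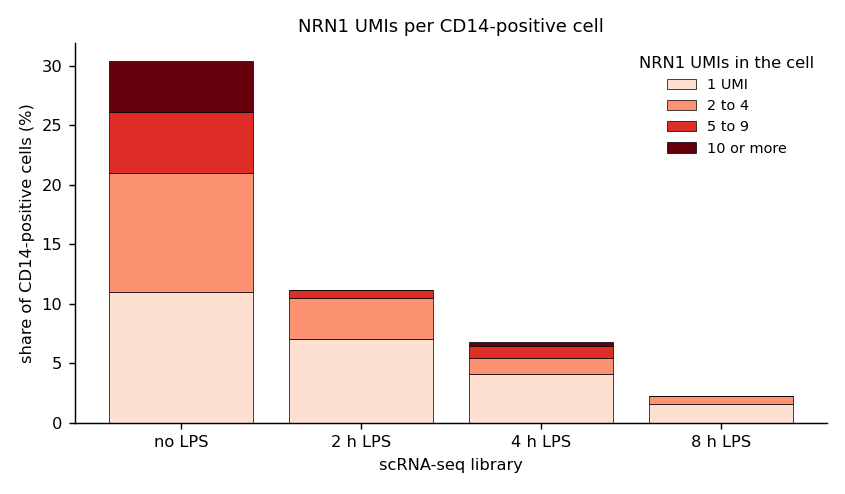
Share of CD14-positive cells (%) with 1, 2 to 4, 5 to 9 and 10 or more NRN1 UMIs in each of the 4 scRNA-seq libraries, stacked; the rest of each bar up to 100% is cells with no NRN1 UMI. The whole bar falls from 30.4% without LPS to 2.27% at 8 h (37.5% to 9.18% with no upper limit on genes), and the 2 upper classes hold 116 cells without LPS against 4, 4 and 0 cells.

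Cells without any lymphoid marker gave a like picture. Among cells with CD14 but none of CD3E, MS4A1 and NCR1, the level was 208 CPM without LPS (197 to 219), 22.8 CPM at 2 h (18.2 to 28.1), 38.0 CPM at 4 h (28.0 to 50.4) and 14.0 CPM at 8 h (7.24 to 24.5). This was 9.13 times lower at 2 h (7.35 to 11.5), 5.47 times lower at 4 h (4.10 to 7.46) and 14.9 times lower at 8 h (8.48 to 28.8). In place of CD14, cells with CSF1R, the receptor through which monocytes receive their growth factor, were also taken. Of the 554 CSF1R-positive cells without LPS 43.3% were NRN1-positive, with 207 CPM, against 21.6% of 171 cells at 2 h with 25.5 CPM, 18.9% of 53 cells at 4 h with 30.0 CPM and 8.57% of 70 cells at 8 h with 19.4 CPM. In both sets the library without LPS stood highest, and the intervals of the LPS libraries did not reach it. No CSF1R-positive cell that lacked CD14 carried NRN1 in any library, out of 33, 7, 1 and 24 such cells. VCAN, a matrix proteoglycan of monocytes, and CD163, the haemoglobin scavenger receptor, marked cells with like levels without LPS, at 196 and 160 CPM of NRN1. In cells with CSF3R, the receptor for the granulocyte growth factor, 27 of 130 were NRN1-positive without LPS (20.8%, 14.2 to 28.8), against 5 of 229, 6 of 204 and 1 of 71 with LPS. All 27 carried CD14 as well, and none of the 65 CSF3R-positive cells without CD14 in that library was NRN1-positive. FLT3, a growth factor receptor of dendritic cells, marked few but deep cells, and of its 23 cells without CD14 6 were NRN1-positive without LPS, 4 of 23 at 2 h, 1 of 13 at 4 h and 2 of 13 at 8 h.

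NRN1 was also lower with LPS among CD14-positive cells of like depth. For this comparison the upper limit on genes was lifted, which gave 1654, 850, 495 and 643 CD14-positive cells. In cells with 10000 to 20000 UMIs, 268 of 540 were NRN1-positive without LPS (49.6%, 45.3 to 53.9), 50 of 278 at 2 h (18.0%, 13.7 to 23.0), 12 of 121 at 4 h (9.92%, 5.23 to 16.7) and 6 of 77 at 8 h (7.79%, 2.91 to 16.2). In cells with at least 20000 UMIs the shares were 61.8% of 348, 34.7% of 236, 20.4% of 196 and 27.9% of 183. At both depths the share without LPS lay above the intervals of all LPS libraries, while the 4 h and 8 h intervals overlapped each other. Of cells under 2000 UMIs, 35 of 229 were positive without LPS (15.3%) and 0 of 103 at 2 h, 0 of 54 at 4 h and 1 of 207 at 8 h. The 8 h library differed from the others in its CD14-positive cells under the limit on genes. Their median depth was 2229.5 UMIs, against 6597, 9077.5 and 6695 in the others, and 42.1% of those without NRN1 also carried CD3E. All 8 T cell markers tested were at least 2-fold higher within the CD14-positive cells at 8 h than without LPS, with a median log2 ratio of 1.39, where 17.8% of all genes with at least 20 UMIs were that much higher, and the part of this in the 8 h value of NRN1 was not tested. Lifting the limit on genes raised the 8 h level in CD14-positive cells to 14.4 CPM, 10.2 times below the 146 CPM without LPS (8.66 to 12).

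**Figure D3:**
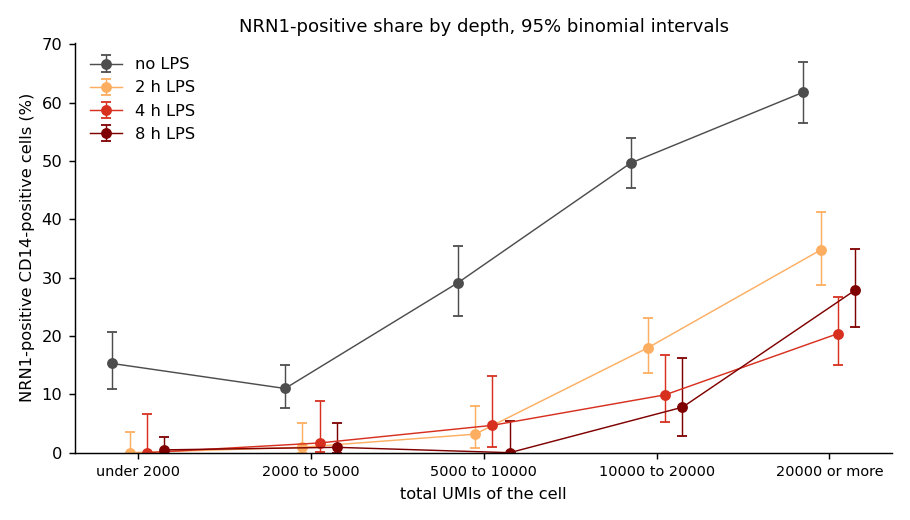
Share of CD14-positive cells (%) that were NRN1-positive, by total UMIs of the cell in 5 ranges, with no upper limit on genes; points are the 4 scRNA-seq libraries and bars are exact 95% binomial intervals. At 10000 to 20000 UMIs the library without LPS stood at 49.6% and the LPS libraries between 7.79% and 18.0%.

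The limit of 3000 genes removed many NRN1-positive barcodes. Barcodes above it numbered 619, 511, 542 and 419 (in the order of LPS time) and held 49.8%, 57.8%, 60.6% and 77.5% of all deposited NRN1 UMIs. Of these barcodes 40.9% were NRN1-positive without LPS, against 13.5%, 7.56% and 12.9% with LPS. Without an upper limit the levels were 63.1, 6.10, 3.86 and 6.19 CPM, so the order of the library without LPS and the LPS libraries stayed as before. Whether such barcodes hold 1 large cell or several cells was not tested.

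Cells with a lymphoid marker and no CD14 carried little NRN1, mostly as single UMIs. Of cells with CD3E alone among the 4 markers, 31 of 3482 were NRN1-positive without LPS (0.890%, 0.606 to 1.26), 15 of 4937 at 2 h, 16 of 3857 at 4 h and 5 of 1550 at 8 h. Of cells with MS4A1 alone, 24 of 1692 were NRN1-positive without LPS (1.42%, 0.911 to 2.10), 10 of 2392 at 2 h, 13 of 1894 at 4 h and 13 of 663 at 8 h (1.96%, 1.05 to 3.33). At 8 h the share in MS4A1 cells was higher than that in CD3E cells (0.323%, 0.105 to 0.751), on 13 and 5 positive cells of 1 library. Median depths were alike, at 5410 and 5244.5 UMIs, and the difference was not tested. Among NCR1-positive cells, 0 of 105 carried NRN1 without LPS (a count of 0 allows up to 2.86%, the exact binomial limit is 3.45%), 0 of 147 at 2 h, 1 of 141 at 4 h and 0 of 50 at 8 h. These counts rest on the limit of 3000 genes. Once it was lifted, 10 of 123 NCR1-positive cells were NRN1-positive without LPS (8.13%, 3.97 to 14.4). With LPS 3 of 162 were at 2 h, 4 of 175 at 4 h and 5 of 69 at 8 h. These NCR1-positive cells could also carry CD14, and doublets among them were not tested. Of cells with NCR1 alone of the 4 markers and no upper limit, 0 of 58, 0 of 98, 0 of 90 and 0 of 39 were NRN1-positive. Over all cells with a lymphoid marker and no CD14 the level was 2.40 CPM without LPS and 0.754, 0.921 and 1.72 CPM with LPS. It was 3.18 times lower at 2 h (2.00 to 5.17), against 9.13 times in cells with CD14 alone (7.35 to 11.5), and at 8 h its interval included no change (1.39 times lower, 0.849 to 2.36).

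The lymphoid signal can be set beside that of monocyte genes in the same cells, since free RNA from broken cells gives UMIs in every droplet. Without LPS the NRN1 level of CD3E-positive cells lacking CD14 was 1.18% of the level in CD14-positive cells. Over 14 other genes of monocytes (CCL2 and the monocyte markers other than CD14) the same percentage ranged from 0.323 to 75.9 with a median of 0.906, and 9 of the 14 lay below NRN1. The highest were CST3 and CTSS, genes of a protease inhibitor and a protease. In MS4A1-positive cells lacking CD14 NRN1 stood at 1.78%, above 10 of the 14 genes (median 0.937). At 2 h NRN1 stood at 3.65% in the CD3E-positive cells, on 18 UMIs, above 12 of the 14 genes (median 0.809), with CTSS at 11.0 and CST3 at 93.6. In MS4A1-positive cells lacking CD14 at 8 h it stood at 43.7%, on 17 UMIs, above 13 of the 14 genes (median 5.08), with CST3 at 48.1. The percentages also move with the level in CD14-positive cells, which was 176 CPM without LPS and 8.26 CPM at 8 h. In these MS4A1-positive cells the NRN1 level itself was 3.13 CPM without LPS and 3.61 CPM at 8 h. Whether free RNA or RNA of the lymphoid cells gave these UMIs was not tested. FOXP3, the factor that defines regulatory T cells, marked 14, 25, 17 and 7 cells, of which 0, 1, 0 and 0 were NRN1-positive. For CTLA4, an inhibitory receptor of T cells, 36 of 372 cells were NRN1-positive without LPS, and only 1 of the 291 without CD14 was. With 14 FOXP3-positive cells, a count of 0 taken to allow 3 counts gives a share of up to 21.4%, not an exact binomial limit. The number of cells thus limits what can be said of regulatory T cells.

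Within CD14-positive cells without LPS, NRN1-positive and NRN1-negative cells differed in depth and in the levels of some other genes. None of the 14 monocyte markers differed 2-fold, with log2 ratios (10 CPM added) from -0.08 for CTSS to 0.75 for CD14. The 375 positive cells had a median of 12437 UMIs and the 858 negative ones 4480, and CD3E was found in 9.33% of the positive and 25.5% of the negative cells, values whose part in the differences below was not tested. F13A1, the A chain of coagulation factor XIII, stood at 410 CPM in NRN1-positive and 144 CPM in NRN1-negative cells and was found in 72.0% and 26.8% of them. The epidermal growth factor family ligand AREG stood at 787 and 292 CPM, the transglutaminase TGM3 at 5050 and 1802 CPM, and the defensin DEFB13 at 774 and 223 CPM. DEFB7, another defensin, stood at 2470 and 1051 CPM, and CA4, a carbonic anhydrase with a GPI anchor, at 367 and 147 CPM. HAS2, which makes hyaluronan, was found in 9.33% of NRN1-positive and 1.40% of NRN1-negative cells. PI3, a protease inhibitor, and NT5DC2 were also among the 10 genes with the largest ratio of NRN1-positive to NRN1-negative cells. ENSBTAG00000047632 led them, at a log2 ratio of 2.57 with 10 CPM added, although it was found in 1.07% of NRN1-positive cells. Differences in the other direction reached further, to -5.31 for ENSBTAG00000047700. CD52 stood at 112 CPM in NRN1-positive and 698 CPM in NRN1-negative cells, UBD at 256 and 1438 CPM, and CD3E at 18.3 and 133 CPM. The 10 higher genes were picked in these same cells without LPS, where their log2 ratios ran from 1.22 to 2.57. At 2 h each of these ratios was smaller, from -0.14 for PI3 to 0.91 for CA4. Each comparison used cells of 1 library, so cells are not replicates and no test was made.

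The genes most like NRN1 across the 4 libraries also had most of their RNA in CD14-positive cells without LPS. Likeness was the distance between the 3 log2 ratios to no LPS, over 10006 genes with at least 200 UMIs in the 4 libraries together. MMP9 was nearest, at a distance of 1.14, with ratios of -3.39, -3.76 and -2.64 (2 h, 4 h and 8 h). After it came PYCARD, the inflammasome adaptor, CLEC12A, an inhibitory lectin receptor of myeloid cells, CCL2, a chemokine that draws monocytes, F13A1, AREG, C5AR1, a receptor for complement C5a, VCAN, ENSBTAG00000049346 and CD163. Between 89.7% and 98.7% of the UMIs of these 10 genes without LPS lay in CD14-positive cells, like the 95.6% of NRN1. When distances were taken within CD14-positive cells over 5569 genes, AREG was nearest at 1.34, with ratios of -2.61, -2.32 and -3.20, and MMP9, PYCARD, CLEC12A, CD163 and F13A1 were again among the 10. The ratios share the library without LPS, and the points are 4 libraries, so likeness is a description. CD14-positive cells gave a smaller part of each LPS library, and the part of this in the whole-library likeness was not tested.

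**Figure D4:**
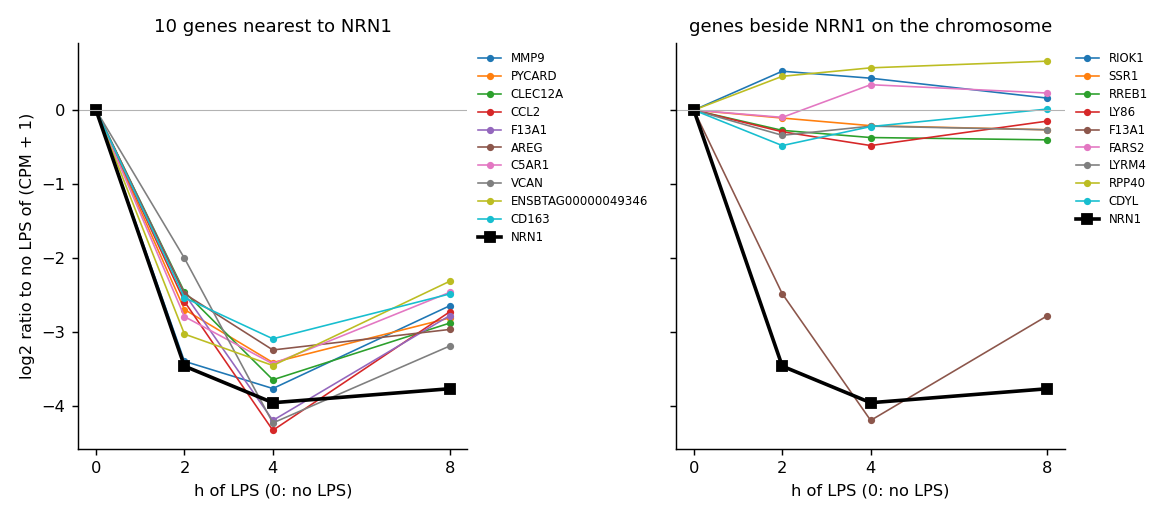
Log2 ratio to no LPS of the whole-library level with 1 CPM added, against h of LPS, for the 10 genes nearest to NRN1 by their ratios (left) and for the 9 detected genes among the 5 on each side of NRN1 in gene order (right), with NRN1 as the thick black line. On the right F13A1 runs with NRN1 from -2.48 at 2 h to -4.19 at 4 h, and the other 8 genes stay between -0.48 and 0.66.

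F13A1 is also the gene beside NRN1 in the RefSeq gene order of cattle (assembly ARS-UCD2.0, used for order only). It stood at 69.7 CPM without LPS and 11.7, 2.86 and 9.30 CPM with LPS, and 96.5% of its UMIs without LPS lay in CD14-positive cells. On the same side follow LY86, RREB1, SSR1 and RIOK1, and on the other side FARS2, LYRM4, PPP1R3G, RPP40 and CDYL. Apart from PPP1R3G, which had no UMI in any library, these neighbours stayed within 2-fold of no LPS at all 3 times in whole libraries. Within CD14-positive cells LY86 stood at 19.2 CPM without LPS and 45.4 CPM at 8 h, and FARS2 at 8.21 and 18.1 CPM. Both were past 2-fold there with 1 CPM added, and the rest of these neighbours stayed within it. LY86, which encodes a partner of a Toll-like receptor relative, stood at 58.7, 47.7, 41.8 and 52.8 CPM, with 8.50% of its UMIs without LPS in CD14-positive cells. Of the neighbours with UMIs, F13A1 was thus the only one at least 2-fold lower at any of these times.

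The gene lists around NRN1 moved as follows. Of the 14 monocyte markers, 12, 13 and 12 were at least 2-fold lower after 2 h, 4 h and 8 h, with median log2 ratios of -1.80, -2.62 and -2.05. Over all genes with at least 20 UMIs the medians were -0.03, 0.02 and 0.10, and 2.46%, 4.26% and 2.92% of genes were at least 2-fold lower. Within CD14-positive cells the monocyte medians were smaller, at -0.87, -0.96 and -1.42. In whole libraries the lowest ratios among the 14 markers were those of CD163 at 2 h (-2.53) and VCAN at 4 h (-4.23), beside -3.46 and -3.95 for NRN1, whose place at 2 h was fixed by the way it was chosen. In whole libraries, of the other genes for GPI-anchored surface proteins, 4 of 24 were at least 2-fold lower at 2 h, 8 of 24 at 4 h and 4 of 22 at 8 h, and none was 2-fold higher. Within CD14-positive cells 1 of 19, 2 of 19 and 4 of 18 were that much lower and 1, 3 and 3 higher, with medians of -0.04, -0.17 and -0.01, where 7.90%, 6.02% and 3.93% of all genes were lower and 3.20%, 5.93% and 17.8% higher. In whole libraries CD14 itself is GPI-anchored and had ratios of -1.79, -2.59 and -2.16. The urokinase receptor PLAUR had -1.07, -2.26 and -2.10, and CA4 -1.31, -2.69 and -2.05. The complement regulator CD55, also GPI-anchored, had -0.61, -1.16 and -0.69, while CD48, a ligand on lymphocytes, had 0.14, 0.21 and 0.05. Of the 26 genes that build and attach the GPI anchor, none passed 2-fold in either direction at any time in whole libraries, with medians of -0.09, 0.00 and 0.11. Within CD14-positive cells 3 of 24 were lower at 2 h, 0 of 24 passed 2-fold at 4 h, and 3 of 23 were higher at 8 h.

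Most genes switched on by neuronal activity, the setting from which NRN1 is known, stayed within 2-fold of no LPS in whole libraries. At 2 h and 4 h a larger share of them than of all genes passed it, on few genes. Of 17 tested at 2 h, 1 was at least 2-fold lower and 2 were higher, with a median of 0.10. Of all genes in whole libraries 2.46%, 4.26% and 2.92% were that much lower after 2 h, 4 h and 8 h. In the same order 0.938%, 1.28% and 0.492% were higher. The higher ones were PTGS2, the inducible cyclooxygenase, at 2.52, and the stress gene GADD45B at 1.01, and the lower one was the phosphatase gene DUSP1 at -1.04. At 4 h 2 of 18 were lower, namely DUSP1 at -1.80 and the transcription factor EGR1 at -1.22, and 2 were higher, and at 8 h 0 of 17 passed 2-fold in either direction. Within CD14-positive cells 3, 6 and 4 of 15 were at least 2-fold higher after 2 h, 4 h and 8 h and 1 was lower each time. Their medians were 0.31, 0.79 and 0.49 against -0.31, 0.03 and 0.39 over all genes. Of all genes in these cells, 3.20%, 5.93% and 17.8% were at least 2-fold higher and 7.90%, 6.02% and 3.93% lower. PTGS2 had 3.55 and GADD45B 1.74 there at 2 h. Of 21 regulators of activity-dependent transcription none passed 2-fold at any time in whole libraries. Within CD14-positive cells 1 of 20 was lower and 2 were higher at 4 h and 4 were higher at 8 h. At 4 h and 8 h 5.93% and 17.8% of all genes in these cells were that much higher. Of 8 regulatory T cell markers tested in whole libraries, 3 were at least 2-fold higher at 2 h and 4 h and 1 at 8 h. None was lower, and 0.938%, 1.28% and 0.492% of all genes were that much higher. The higher markers were IL2RA, the high-affinity interleukin-2 receptor chain, at 1.19 and 1.46, TNFRSF18 at 1.85 and 1.68, and TNFRSF4 at 1.90, 2.04 and, at 8 h, 1.08. Within CD14-positive cells 4 of 7 were at least 2-fold higher at each time, with medians of 1.32, 1.28 and 1.14. There 3.20%, 5.93% and 17.8% of all genes were that much higher. Which cells carried these rises was not tested. No T cell or NK cell marker passed 2-fold in whole libraries at any time.

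In scATAC-seq, which counts transposase cuts in open chromatin of single nuclei, the NRN1 ratios to no LPS were closer to 1 than those of RNA. The tables list NRN1 in the libraries without LPS, at 2 h and at 4 h. It is not listed at 8 h, as are 354 of the 11298 genes listed in the other 3 libraries, and no value is given there, since an unlisted gene is not a count of 0. NRN1 had 12 counts in 8 of 3121 barcodes without LPS, 351 counts in 177 of 4172 barcodes at 2 h and 258 counts in 138 of 3231 barcodes at 4 h. Relative to library totals of 975012, 30250143 and 26837579 counts this was 12.3 CPM (6.36 to 21.5), 11.6 CPM (10.4 to 12.9) and 9.61 CPM (8.48 to 10.9). The level at 2 h was 0.943 times that without LPS (0.533 to 1.84) and at 4 h 0.781 times (0.440 to 1.53). By barcodes with a count the ratios were 0.713 (0.354 to 1.68) and 0.627 (0.309 to 1.48), and over barcodes with at least 500 counts, which moved the level without LPS to 23.5 CPM on 8 counts, they were 0.493 and 0.408. The RNA ratios were 0.0718 and 0.0449. The library without LPS was shallow, with a median of 213 counts in a barcode against 5171 and 5205, so its 12 counts limit both comparisons. From 2 h to 4 h the level changed 0.829-fold (0.703 to 0.976), and by barcodes with a count 0.879-fold (0.698 to 1.1). Counts were mostly even numbers, 74.6% of the NRN1 values at 2 h, so count-based intervals are too narrow and the interval by barcodes includes no change.

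**Figure D5:**
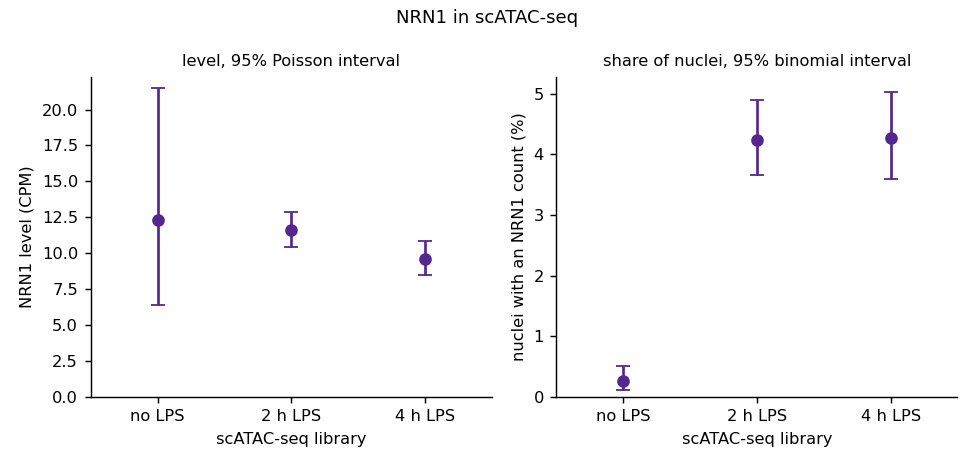
NRN1 in the 3 scATAC-seq libraries that list it; left, level (CPM) with exact 95% Poisson intervals, right, share of barcodes with at least 1 NRN1 count (%) with exact 95% binomial intervals, 1 point per library. The levels lie at 12.3, 11.6 and 9.61 CPM with overlapping intervals, while the share without LPS (0.256%) is far below 4.24% and 4.27%, beside a median depth of 213 counts against 5171 and 5205.

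Most NRN1 counts in scATAC-seq came from nuclei without a CD14 count, 291 of 351 at 2 h and 222 of 258 at 4 h. Most nuclei were of this kind, 3902 of 4172 at 2 h and 3037 of 3231 at 4 h. Lack of a CD14 count does not show that a nucleus was not of a monocyte. At 2 h 28 of 270 nuclei with a CD14 count had an NRN1 count (10.4%, 7.0 to 14.6), against 149 of 3902 without (3.82%, 3.24 to 4.47), at median depths of 10021 and 4941.5 counts. Scaled to all counts of the same set of nuclei, the difference was smaller, at 15.2 and 11.1 CPM. At 4 h both sets of nuclei stood at 9.63 and 9.61 CPM. Nuclei with a CSF1R count stood at 22.1 CPM at 2 h, on 36 counts, and the others at 11.0 CPM. Nuclei with an MS4A1 count stood at 12.3 CPM at 2 h and 7.71 CPM at 4 h, against 11.2 and 11.2 CPM in the others. CD14 is not listed without LPS and CD3E in none of the 4 libraries, so the same split could not be made there. The neighbour F13A1 is listed at 2 h alone, with 3.57 CPM.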

How the data were processed

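PBMCs of pooled blood were measured by scRNA-seq and scATAC-seq, with 1 library for each of 4 treatments per assay. The deposited scRNA-seq values are unnormalized UMI counts of each gene in each barcode, from Cell Ranger with the ARS-UCD1.2 genome. The scATAC-seq tables, also as deposited, hold unnormalized counts of each gene in each barcode, and the rule that assigns cuts to genes is not given in the sources used here. Genes were matched between assays by Ensembl identifier.

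UMIs of the cells kept were summed per library or marker status and scaled to CPM. A cell was positive for a gene with at least 1 UMI. Ratios between libraries used a pseudocount of 1 CPM, and the comparison of NRN1-positive with NRN1-negative cells was ranked with 10 CPM. Shares have Clopper-Pearson intervals, counts exact Poisson intervals, and ratios of counts exact conditional intervals. A count of 0 allows 3 counts. Genes past 2-fold were counted among those with at least 200 UMIs over both libraries (20 for lists, 100 within CD14-positive cells). Cells were classed by CD14, CD3E, MS4A1 and NCR1, without clustering. No test was made, because each treatment had 1 library per assay.

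NRN1, the gene lists and the markers were chosen with earlier results of these data known. The genes named are NRN1, the markers and list members with at least 200 UMIs, the 10 genes nearest by ratio, the 10 highest in NRN1-positive cells, 5 genes on each side in gene order and those next in the order of falls. Cells with CD14 and no lymphoid marker, CD14-positive cells with no upper limit on genes and thinning to 3000 UMIs were added after the data were seen. Of the listed names TRDC, WC1.1, PF4, PPBP, HBA1, BST2, GPIHBP1, ALPP and SIK1 had no row. The ratio step was tested on simulated data. Python 3.11.15, numpy 2.4.6, scipy 1.17.1 and, for library scaling, edgeR 4.0.16 and DESeq2 1.42.0 were used.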

Additional observations from a re-analysis of the deposited data

Results flagged for a closer look

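At 8 h the NRN1 level moved in opposite directions in cells with MS4A1 alone and in cells with CD14 alone of the 4 markers. In MS4A1 cells it was 1.12 times that without LPS (0.537 to 2.24, from 25 UMIs to 14), and in CD14 cells 0.0673 times (0.0347 to 0.118, from 1443 UMIs to 12). The MS4A1 interval includes no change, and the difference between the 2 cell sets was not tested. At 2 h and 4 h the ratio was below 1 in both.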

How the results depend on the processing

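Of 148 alternative values 48 stayed within the counting interval or 1.5 times of the reported value, and 100 lay outside it. A change of direction was looked for only in the 33 alternative log2 ratios of NRN1 RNA to no LPS. All 33 were below 0, between -4.41 and -2.42. Scaling by edgeR TMM factors or DESeq2 size factors and a mitochondrial limit of 10% kept every level and ratio within its counting interval. Depth limits the LPS libraries, with 164, 86 and 43 NRN1 UMIs, and the scATAC-seq library without LPS, with 12 counts. No paired analysis was possible because each treatment has 1 library per assay and no result comes from a test. The cause of the shifts below was not tested, beyond what the choice of cells or depth sets by construction.

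In the order no LPS, 2 h, 4 h and 8 h, NRN1 levels were 63.0, 6.10, 3.86 and 6.18 CPM over every deposited barcode and 63.1, 6.10, 3.86 and 6.19 CPM with no upper limit on genes. With each cell weighted equally they were 26.5, 1.92 and 1.46 CPM up to 4 h. CD14-positive cells gave 176, 20.3, 21.0 and 8.26 CPM, CSF1R-positive cells 207, 25.5, 30.0 and 19.4 CPM, cells with CD14 alone 208, 22.8, 38.0 and 14.0 CPM, and CD14-positive cells without the gene limit 146, 24.1, 17.4 and 14.4 CPM. The log2 ratios at 2 h, 4 h and 8 h were -3.17, -3.72 and -3.16 over every barcode, -3.17, -3.72 and -3.16 with no upper limit, -3.24, -3.48 and -3.15 with cells weighted equally, -3.05, -3.00 and -4.25 in CD14-positive cells, -2.97, -2.75 and -3.35 in CSF1R-positive cells, -2.55, -2.99 and -3.26 in CD14-positive cells without the gene limit, and -3.76, -4.41 and -4.16 with a pseudocount of 0.1 CPM. With CD14 alone they were -3.14 and -2.42 at 2 h and 4 h.

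The NRN1-positive share of all cells was 8.33%, 1.70%, 1.18% and 2.28% over every barcode, 8.36%, 1.71%, 1.19% and 2.30% with no upper limit, 1.92%, 0.160%, 0.145% and 0.234% with cells thinned to 1000 UMIs, and 4.06%, 0.514%, 0.399% and 0.491% thinned to 3000 UMIs. Of CD14-positive cells it was 37.4%, 16.0%, 11.1% and 9.13% over every barcode, 37.5%, 16.1%, 11.3% and 9.18% with no upper limit, and 10.6%, 1.23%, 1.23% and 0.453% thinned to 1000 UMIs. Thinning to 3000 UMIs gave 21.5%, 4.08% and 3.74% up to 4 h, at least 2 CD14 UMIs 40.3%, 16.0% and, at 8 h, 6.98%, and CSF1R in place of CD14 43.3%, 21.6%, 18.9% and 8.57%. Thinned to 1000 UMIs, the order of 2 h and 4 h within CD14-positive cells could not be told. UMIs per positive cell were 5.17, 2.20, 2.32 and 2.17 over every barcode and 5.18, 2.20, 2.32 and 2.17 with no upper limit.

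With at least 500 counts a barcode, the scATAC-seq level without LPS was 23.5 CPM, and the log2 ratios to it were -1.02 at 2 h and -1.29 at 4 h, on 8 counts without LPS. With no upper limit on genes, 134 genes were at least 2-fold lower at 8 h, against 288.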
